A study of Mus musculus with 2 samples.

Results

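Nuclear-encoded genes of oxidative phosphorylation (OXPHOS) were examined in nucleoplasmic RNA, the soluble RNA of the nucleus, of mouse bone-marrow-derived macrophages. Members were chosen by name. A gene was taken when its symbol began with Nduf followed by a, b, c, s or v, with Uqcr, with Cox4 to Cox8 or with Atp5, or was one of the 4 Sdh genes, and when it had a transcript annotated as protein-coding. The rule used no measured value. It gave 93 symbols, held by 94 of 55536 annotated gene entries, and was set against all 22015 protein-coding genes of the nuclear genome. Of the 93 genes, 75 encode constituent subunits of the complexes: 36 of complex I, 4 of complex II, 8 of complex III, 11 of complex IV and 16 of complex V. Another 8 encode assembly factors of complex I, 8 encode isoforms of complex IV subunits described mainly in particular tissues or states, and the remaining 2 are Cox7a2l, a factor of respiratory supercomplexes, and Atp5s, an accessory factor of ATP synthase.

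The series held 1 group of 2 libraries, labelled as biological replicates 1 and 2. In both, primary macrophages of strain C57BL/6J had received Lipid A, the membrane anchor of bacterial lipopolysaccharide, at 100 ng/ml for 60 min. Ribosomal RNA was depleted before sequencing. The starting amount of RNA was 1 µg in replicate 1 and 500 ng in replicate 2, and the donor label is the same for both. No unstimulated library was analysed here, so the values are levels after stimulation, without a comparison between conditions. No test between groups was possible, and SDs are of n = 2 throughout.

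OXPHOS passes electrons from NADH through complex I, or from succinate through complex II, to ubiquinone, then through complex III and cytochrome c to complex IV, which reduces oxygen. Complexes I, III and IV pump protons, and complex V, ATP synthase, uses the gradient to make ATP. Complex II is encoded in the nucleus alone, whereas the other complexes also have subunits encoded in mitochondrial DNA. In macrophages, stimulation through Toll-like receptor 4 is known to shift ATP production towards glycolysis over hours.

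Promoter sequences of a few members, chosen after their levels were seen, are shown beside the levels reported below. Whether a motif goes with a level was not tested. Nuclear respiratory factor 1 (NRF1), the ETS factor GABPA and YY1 are transcription factors known to bind promoters of OXPHOS genes. RefSeq promoters, the window from 250 bases before to 50 after the start site on build GRCm38.p6, were matched for 76 members. Capitals mark matches, on either strand, to the NRF1 core GCGCANGCG, the ETS core CCGGAAG, the YY1 core AAGATGGCG or the TATA box TATAAA. Sdha encodes the flavoprotein of succinate dehydrogenase and was the highest member of complex II. Its promoter (chr13:74350191-74350490, minus strand) held 3 NRF1 cores, starting at -98, -55 and -10 bases from the start site. Ndufs6, an accessory subunit and the lowest of complex I in the gene table, had 1 NRF1 core at -15 and 1 YY1 core at 33 (chr13:73328433-73328732, minus strand). Atp5b, which encodes the catalytic beta subunit of ATP synthase and was the highest member in the gene table, had no match to these 4 motifs in its window (chr10:128083057-128083356, plus strand).
Sdha: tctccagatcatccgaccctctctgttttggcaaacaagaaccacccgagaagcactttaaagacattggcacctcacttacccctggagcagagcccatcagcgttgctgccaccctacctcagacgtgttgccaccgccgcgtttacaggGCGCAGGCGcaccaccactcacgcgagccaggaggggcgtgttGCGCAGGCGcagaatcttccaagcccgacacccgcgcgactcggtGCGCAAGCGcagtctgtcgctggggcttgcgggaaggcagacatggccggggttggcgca
Ndufs6: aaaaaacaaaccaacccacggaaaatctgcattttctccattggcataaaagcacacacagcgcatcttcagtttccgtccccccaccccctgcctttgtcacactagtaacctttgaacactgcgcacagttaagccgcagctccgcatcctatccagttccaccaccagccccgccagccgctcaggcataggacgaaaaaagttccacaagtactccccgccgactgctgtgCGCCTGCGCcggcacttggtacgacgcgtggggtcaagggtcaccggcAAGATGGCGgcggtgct
Atp5b: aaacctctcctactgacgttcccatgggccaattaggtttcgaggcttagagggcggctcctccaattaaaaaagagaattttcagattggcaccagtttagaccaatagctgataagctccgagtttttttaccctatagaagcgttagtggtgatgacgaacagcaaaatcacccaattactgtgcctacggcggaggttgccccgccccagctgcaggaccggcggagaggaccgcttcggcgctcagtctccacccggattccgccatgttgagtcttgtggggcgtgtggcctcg

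For complex IV, promoters of some widely expressed isoforms and of their restricted counterparts are shown. Their levels in these libraries differed widely, and the pairs were chosen after these levels were seen. Cox8a (chr19:7217567-7217866, minus strand) had 2 ETS cores, at -5 and 32, and 19 CpG dinucleotides. Cox8b, its counterpart known from heart and skeletal muscle (chr7:140900397-140900696, minus strand), had 2 CpG dinucleotides and a TATA box match at 4. Cox6b1 (chr7:30626065-30626364, minus strand) had 1 ETS core at -28 and 17 CpG dinucleotides. Its counterpart known from testis, Cox6b2 (chr7:4753045-4753344, minus strand), had 10 CpG dinucleotides and no match. Promoters of other such pairs are not printed. Cox7b, at 2.90 and 2.64 TPM, had 5 CpG dinucleotides, against 10 in Cox7b2, which was at 0 counts. Cox7a2 had 20 CpG dinucleotides and Cox7a1 had 7. Neither Cox7b nor Cox7a2 held an NRF1, ETS or YY1 core.
Cox8a: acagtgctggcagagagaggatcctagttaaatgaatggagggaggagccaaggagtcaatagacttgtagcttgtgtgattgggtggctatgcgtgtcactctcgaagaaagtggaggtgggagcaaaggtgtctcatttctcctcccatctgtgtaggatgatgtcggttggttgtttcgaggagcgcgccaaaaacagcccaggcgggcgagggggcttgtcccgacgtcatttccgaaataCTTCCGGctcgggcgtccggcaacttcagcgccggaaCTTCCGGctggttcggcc
Cox8b: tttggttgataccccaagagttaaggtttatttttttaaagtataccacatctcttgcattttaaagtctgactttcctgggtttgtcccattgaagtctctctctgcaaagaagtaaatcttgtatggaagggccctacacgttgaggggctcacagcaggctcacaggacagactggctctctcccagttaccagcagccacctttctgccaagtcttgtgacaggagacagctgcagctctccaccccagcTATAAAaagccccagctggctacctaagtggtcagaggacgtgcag
Cox6b1: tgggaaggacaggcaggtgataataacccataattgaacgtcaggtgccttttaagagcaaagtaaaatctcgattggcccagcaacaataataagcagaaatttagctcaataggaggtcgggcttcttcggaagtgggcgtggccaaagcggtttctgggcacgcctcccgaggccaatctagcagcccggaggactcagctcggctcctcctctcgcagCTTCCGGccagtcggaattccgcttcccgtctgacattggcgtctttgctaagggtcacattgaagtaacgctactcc
Cox6b2: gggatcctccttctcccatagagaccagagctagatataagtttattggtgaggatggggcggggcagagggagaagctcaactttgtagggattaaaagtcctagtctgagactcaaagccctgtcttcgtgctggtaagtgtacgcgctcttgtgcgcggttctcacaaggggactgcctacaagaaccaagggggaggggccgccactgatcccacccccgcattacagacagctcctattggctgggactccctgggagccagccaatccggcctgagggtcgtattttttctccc

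Depth, as the sum of expected counts in the gene table, was 21256531 in replicate 1 and 15643649 in replicate 2. TPM is the share of a library that falls on a gene, corrected for length. All 9 macrophage markers reached 10 TPM in each library, and they summed to 3976 and 3540 TPM. The 4 markers of T and NK cells were at 0 counts in both, and those of striated muscle, which could bring in muscle isoforms, summed to 0.73 and 0.51 TPM with 4 of 5 at 0. The summed TPM of B cell, erythroid, fibroblast and neutrophil markers was at most 0.32 in either library. Values of TPM ran higher in replicate 1. The median log2 ratio of replicate 1 over replicate 2 was 0.42 over the 8622 nuclear protein-coding genes that reached 1 TPM in each library, and 0.33 over the 80 members that did. Genes that reached 1 TPM in each library are called detected below. The SD of a TPM therefore includes this shift.

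Most members were present in the nucleoplasm, at modest levels. Detected were 80 of 93 members (86.0%), against 39.2% of all nuclear protein-coding genes. At 10 TPM or more in each library the share was 21.5% (20 members), against 14.4%. Among detected genes alone this order turned round, with 20 of 80 members at 10 TPM or more, against 3179 of 8622 genes. In the gene table all 75 constituent subunits were detected, as were 3 of the 8 assembly factors and 0 of the 8 restricted isoforms. In the second transcript table, a separate quantification of the same libraries, 75 of the 93 members reached 1 TPM in each library. There the subunits Ndufa8, Ndufb4, Ndufb6 and Ndufs6 stood at 0.526, 0.873, 0.479 and 0.630 TPM in replicate 1. Values below are from the gene table unless stated. The median of log2(TPM + 1) was 2.53 ± 0.29 over all members and 0.32 ± 0.05 over all nuclear protein-coding genes (SD, n = 2). Within a library the difference was 2.21 ± 0.24. In linear units the median member stood at 5.66 TPM in replicate 1 and at 4.01 TPM in replicate 2. Together the members, 93 of 22015 nuclear protein-coding genes, made up 0.321 ± 0.0236% of the TPM of these genes and 0.0993% of their expected counts. The 5 highest members held 26.4% and 25.4% of member TPM, and the 10 highest 39.4% and 37.3%.

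The complexes differed in level. Complex I, with the most subunits, was the lowest of the 5, with a median TPM of 4.81 and 3.51 in replicates 1 and 2. Complexes II and III stood next to each other, at 7.40 and 7.35 for complex II and 8.23 and 6.30 for complex III. Complex V had a median of 11.8 and 9.65, and complex IV was highest at 13.0 and 11.5. On the log2(TPM + 1) scale, the median of complex IV lay 1.37 ± 0.14 above that of complex I, complex V 1.19 ± 0.07, complex II 0.70 ± 0.24 and complex III 0.65 ± 0.02 (SD, n = 2). Each difference had the same sign in both libraries. Complexes II and III differed from each other by less than the spread of the complex II value, and complexes IV and V lay close together. Their order turned round when members that overlap another gene were left out (1.02 for complex IV and 1.21 for complex V). With counts per library size (CPM), which are not corrected for length, complex II was the highest, at 1.45 above complex I, with complex IV at 0.89, complex III at 0.67 and complex V at 0.64. Subunits of complex II were also the longest, with median effective lengths of 1379 and 1142 bases against 527 and 532 in complex I. When summed, complex V took the largest part of member TPM, 32.8 ± 1.14%, followed by complex I at 24.9 ± 1.56%, complex IV at 22.9 ± 0.280%, complex III at 10.03 ± 0.145% and complex II at 5.96 ± 0.0645% (SD, n = 2).

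**Figure D1:**
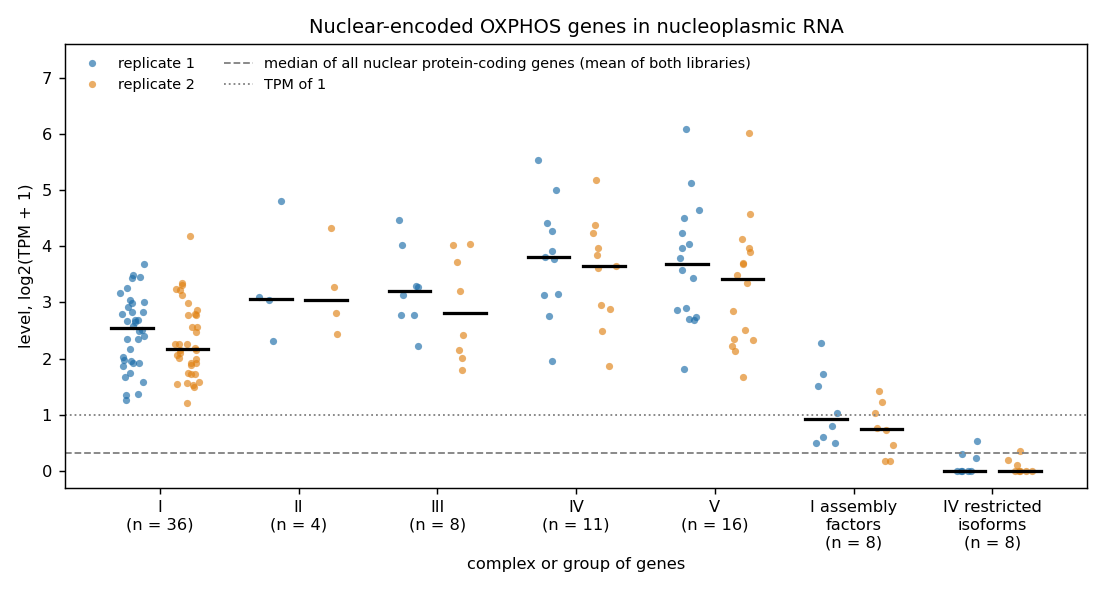
Level of each member, as log2(TPM + 1), in replicate 1 (blue, left of each pair) and replicate 2 (orange, right), grouped by complex, with group medians as black bars. All subunit values of the 5 complexes lie above a TPM of 1 (dotted line), complex IV and V medians lie above that of complex I, and the restricted isoforms lie at or near 0; the dashed line is the median of all nuclear protein-coding genes.

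Complex I takes electrons from NADH. Its 7 nuclear-encoded core subunits form the arm that oxidises NADH and passes electrons to the quinone site, and accessory subunits surround the core. Only 1 of the 36 subunits, Ndufa3, reached 10 TPM in each library. Ndufa3, an accessory subunit of the membrane arm, stood at 10.01 TPM in replicate 1 and 17.1 TPM in replicate 2. It rests on 54 and 67 counts and overlaps the gene Tfpt on the opposite strand. Ndufs1, the largest core subunit, with iron-sulphur clusters, followed at 11.9 and 9.20 TPM on 585 and 418 counts. In the second transcript table, a separate quantification of the same libraries, the order of this pair turned round, with means of 11.8 TPM for Ndufs1 and 6.47 TPM for Ndufa3. Ndufa6, an accessory subunit, had 10.2 and 5.86 TPM. The lowest were the accessory subunits Ndufb6, at 1.54 and 1.93 TPM on 17.0 and 19.8 counts, and Ndufs6, at 1.41 and 1.88 TPM on 13 and 16 counts. Ndufs3, Ndufs7, Ndufs8, Ndufv1 and Ndufv2, also core subunits, lay between 2.01 and 5.95 TPM. The median log2(TPM + 1) of core subunits lay 0.19 ± 0.13 above that of the 29 accessory subunits (SD, n = 2), a difference close to its spread.

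Assembly factors help to build complex I and are not part of it. Their median log2(TPM + 1) was 0.83 ± 0.12, against 2.35 ± 0.26 for complex I subunits, and the difference within a library was -1.52 ± 0.14 (SD, n = 2). Ndufaf3 was highest at 3.82 and 1.68 TPM. Ndufaf7, a methyltransferase, had 1.85 and 1.33 TPM, and Ndufaf8 had 2.32 and 0.69. Ndufaf1 had 1.05 TPM in both libraries. The order of Ndufaf3 and Ndufaf8 turned round in the second transcript table, where Ndufaf8 had a mean of 3.17 TPM and Ndufaf3 a mean of 1.11. Ndufaf2 had 0.52 and 0.13 TPM and Ndufaf5 had 0.42 and 0.13, each on 10 counts or fewer in either library. The ranges of assembly factors and subunits overlapped, since Ndufaf3 reached the level of the lower subunits. A separate list of 43 matched genes, mostly assembly factors of complexes I to V, with names outside the rule, had a median of 1.54 ± 0.04. Of these 43, 27 were detected. The list also holds Atpif1, at 18.5 and 22.2 TPM, and Usmg5, at 16.4 and 14.7, which are not assembly factors. Its highest member was Cox17, a copper carrier for complex IV, at 34.5 and 22.9 TPM, and its lowest was Pet117, at 0.19 and 0 TPM.

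Complex II, succinate dehydrogenase, is also an enzyme of the TCA cycle. Sdha had a TPM of 27.1 and 19.0 on 1143 and 791 counts, and stood well above the other 3 in both libraries. Sdhb, the iron-sulphur subunit, had 7.23 and 4.43 TPM. The membrane anchors Sdhc and Sdhd had 3.97 and 8.72 TPM and 7.56 and 5.98 TPM. Sdhc is the member of this complex whose 2 libraries were farthest apart. All 13 TCA cycle enzymes of a separate list were detected. On the log2(TPM + 1) scale the median was 3.06 ± 0.02 for complex II and 3.36 ± 0.10 for this list (SD, n = 2). Dlst, a component of the 2-oxoglutarate dehydrogenase complex, was the highest of them at 77.9 and 59.1 TPM, and Idh3a, a subunit of NAD-dependent isocitrate dehydrogenase, the lowest at 1.11 and 1.27.

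Complex III passes electrons from ubiquinol to cytochrome c. Uqcrh, the hinge protein, had a TPM of 21.04 and 15.3. Uqcrc1, a core protein without a redox centre, had 15.3 and 12.1 TPM. Uqcrb, a small subunit, had 8.76 and 15.4 TPM, and was the complex III subunit with the clearest excess in replicate 2. Uqcr11 had 7.77 and 8.24 TPM. Uqcr10 had 5.84 and 3.02 TPM, and Uqcrc2, the partner of Uqcrc1 in the same dimeric complex, was lowest at 3.65 and 2.49. Uqcrfs1, the Rieske iron-sulphur protein and the one subunit with a redox centre among these 8, had 5.89 and 4.35 TPM. In a separate list for cytochrome c and cytochrome c1, Cycs had 4.38 and 4 TPM and Cyc1 had 4.4 and 3.02. Hccs, which attaches haem to cytochrome c and is not itself a cytochrome, had 4.27 and 4.80 TPM. Its mean was the highest of the list. Cyct, the testis form of cytochrome c, was at 0 counts in both libraries.

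In complex IV the constitutive isoforms were present and their tissue-restricted counterparts were nearly absent. Cox4i1, the subunit assembled early with the catalytic core, had a TPM of 45.1 and 35.3, and Cox4i2, a form known from lung and from low oxygen, had 0.24 and 0.08 on 3 counts and 1 count. Cox6a1 had 12.6 and 11.2 TPM, and the heart and muscle form Cox6a2 had 0.17 and 0.28. Cox6b1 had 14.1 and 17.9 TPM, and Cox6b2 had 0 and 0.14. For Cox7a, the general form Cox7a2 had 7.91 and 6.40 TPM, the supercomplex factor Cox7a2l had 13.7 and 11.8, and the muscle form Cox7a1 had 0.44 and 0 on 3 and 0 counts. Cox7b had 2.90 and 2.64 TPM, Cox8a 7.75 and 6.70, and Ndufa4, a subunit of complex IV despite its name, 5.75 and 4.6. Their counterparts Cox7b2, Cox8b, Cox8c and Ndufa4l2 were at 0 counts in both libraries, which allows up to 3 counts, or 0.142 and 0.192 CPM, by counting error alone. In bulk RNA, a high level in few cells and a low level in many cannot be told apart. The other high members were Cox7c at 30.9 and 19.9 TPM and Cox6c at 20.3 and 14.6 TPM.

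The second transcript table also gave more counts for some restricted isoforms: 47 and 22 for Cox4i2 and 27 and 17 for Cox7a1. This put Cox4i2 at 1.09 and 0.643 TPM and Cox7a1 at 1.10 and 0.958. Their constitutive counterparts stood at 26.7 and 29.7 TPM (Cox4i1) and 6.38 and 8.27 (Cox7a2) in that table.

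**Figure D2:**
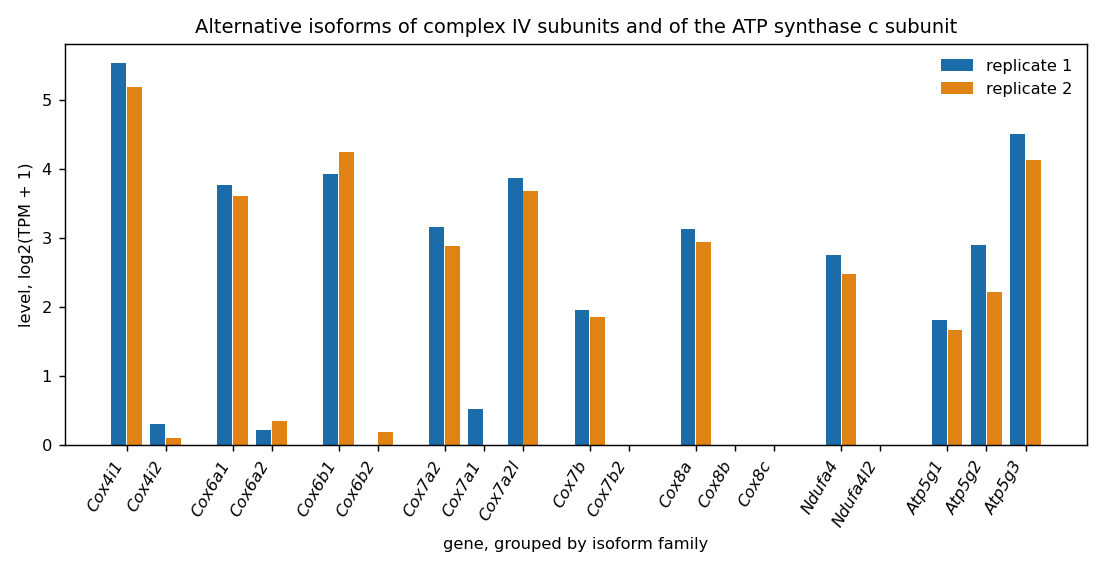
Level, as log2(TPM + 1), of members of isoform families in replicate 1 (blue) and replicate 2 (orange). In each complex IV family the constitutive form stands above its restricted counterpart; Cox7b2, Cox8b, Cox8c and Ndufa4l2 have no bar because they were at 0 counts, and the 3 genes for the c subunit of ATP synthase are all present.

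Complex V has a catalytic F1 head, a peripheral stalk and a membrane part with a ring of c subunits. Atp5b, the catalytic beta subunit, was the highest of all members in the gene table, at a TPM of 67.3 and 64.0 on 1597 and 1260 counts. Atp5a1, the alpha subunit of the same head, was next within complex V at 33.9 and 22.9 TPM. On protein-coding transcripts alone this order turned round, with 24.3 and 19.1 TPM for Atp5b and 30.6 and 21.5 for Atp5a1. Cox4i1, at 34.5 and 27.5 TPM on such transcripts, was then also above Atp5b. The other F1 subunits, Atp5c1, Atp5d and Atp5e, lay between 4.01 and 9.84 TPM, so the subunits of this head were not level with each other. Atp5j, of the peripheral stalk, had 24.1 and 11.8 TPM. The c subunit is encoded by 3 genes whose mature proteins are identical and whose import signals differ. Atp5g3 held 70.8% and 73.8% of their summed TPM, at 21.7 and 16.4 TPM, Atp5g2 had 6.44 and 3.66, and Atp5g1 had 2.50 and 2.17. Atp5g2 was the member with the least certain assignment of reads: the deposited posterior SD of its count was 11.4% and 12.6% of the 79.7 and 41.8 counts. Atp5s, the accessory factor, had 3.08 and 2.04 TPM.

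Transcripts of the mitochondrial genome that encode the partner subunits were far higher than the nuclear transcripts. The 13 mitochondrially encoded subunits took 5.01% and 6.13% of all TPM, although the fraction is labelled as nuclear. In complex I, the 7 mitochondrial genes had a median of 2825 and 3627 TPM, against 4.81 and 3.51 TPM for the 36 nuclear genes, and the difference between the medians of log2(TPM + 1) was 9.29 ± 0.51. It was 8.92 ± 0.49 in complex III, 5.85 ± 1.02 in complex IV and 8.07 ± 0.41 in complex V (SD, n = 2). The highest of them was mt-Atp8, at 11925 and 21880 TPM, and the lowest was mt-Co2, at 169 and 135, above every nuclear member in both libraries. How far RNA from outside the nucleus enters the members' own values was not tested.

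Of 10 regulators of OXPHOS genes in a separate list, 7 were detected. Esrra, an orphan nuclear receptor, was highest at 17.6 and 10.7 TPM, and the coactivator gene Ppargc1a, known from muscle and brown fat, was lowest at 0.02 and 0. Gabpa, Yy1 and Nrf1, whose motifs were searched here, had 11.7 and 8.61, 6.48 and 5.20, and 5.90 and 4.51 TPM.

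Promoters of the members differed from other promoters in some motifs. Among the 63 constituent subunits with a promoter, taken at 1 start site each, 19 (30.2%) held the NRF1 core, against 14.2% of 8924 promoters of detected protein-coding genes and 6.25% of all 32851 promoters of the table. The YY1 core was in 6 (9.52%), against 3.36% and 1.40%. The ETS core was in 15 (23.8%), against 19.6% and 8.86%, so the share among subunits was close to that of detected genes. The CCAAT box, CCAAT, was in 41.3%, against 36.5% and 37.4%, and the TATA box in 7.94%, against 6.94% and 13.6%. The SP1 GC box, GGGCGG, was less frequent among subunits than among detected genes, at 39.7%, against 63.9% and 35.7%. The comparison sets count every start site, with 8924 promoters for 6934 detected genes. Counted in that way, 68 subunit promoters held the NRF1 core in 30.9%, the YY1 core in 10.3%, the ETS core in 23.5% and the SP1 GC box in 38.2%. Of all 76 members with a promoter, 37 held an NRF1, ETS or YY1 core. Both an NRF1 and an ETS core were held by 6: Atp5h, Atp5k, Atp5l, Cox6a1, Sdhd and Uqcr11. Neither count was taken over other promoters, so whether members differ from other genes in them was not tested. None of the 4 restricted isoforms with a promoter held an NRF1, ETS or YY1 core, but 4 promoters are too few to set against the shares above. Their median number of CpG dinucleotides was 8.5, against 19 among the constituent subunits. It was 21 over promoters of detected protein-coding genes and 7 over all promoters, so each group lay near one of these values. A match describes the letters in the window and not binding in these cells, and these shares carry no test.

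**Figure D3:**
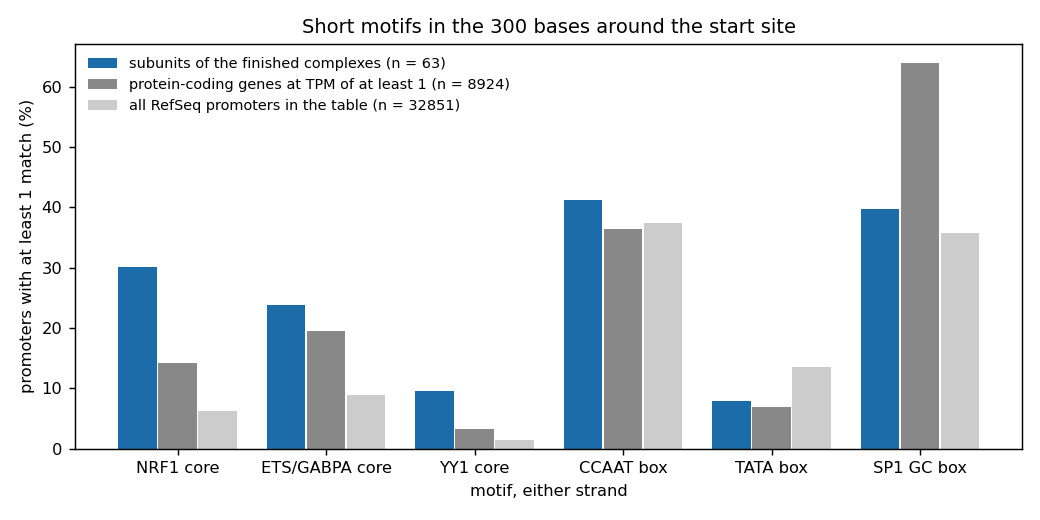
Percent of promoters with at least 1 match, on either strand, to each of 6 motifs, for constituent OXPHOS subunits (blue), detected protein-coding genes (dark grey) and all promoters of the RefSeq table (light grey). Subunits are taken at 1 start site each and the other sets at all start sites. NRF1 and YY1 cores were more frequent among subunits (30.2% and 9.52%) than in either other set, and the SP1 GC box less frequent than among detected genes (39.7% against 63.9%).

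The libraries were then compared gene by gene, to see which members differed between the replicates after scaling by library size. Of 57 members with a mean count of at least 50, 1 differed beyond 2-fold, against 1.18% of all genes (119 of 10088). That member was Uqcrb, with 71 counts in replicate 1 and 115 in replicate 2 and a log2 ratio of -1.19 (replicate 1 over replicate 2). Sdhc followed at -0.94 on 188 and 257 counts, Ndufb5 at -0.84 on 64.6 and 83, Ndufa3 at -0.80 on 54 and 67, and Ndufc2 at -0.64 on 73 and 81. All 5 were higher in replicate 2. The highest positive ratio was 0.57, for Atp5j on 232 and 111 counts. The median ratio was -0.07 over the members and -0.0014 over all genes, and the median absolute ratio was 0.18 for both. In complex I, 15 of 21 subunits had a ratio below 0 and the median was -0.22, against 5056 of 10088 genes below 0. Complex IV had a median of -0.11, with 6 of 10 below 0, and complexes II, III and V had medians of -0.02, 0.02 and -0.01. Starting amount and library differ together, so their parts in these ratios cannot be told apart. In the second transcript table Uqcrb no longer passed 2-fold, at -0.85, and Sdhc was at -0.68 and Ndufb5 at -0.23. The 1 member beyond 2-fold there, of 73 (1.37%), was Atp5g2, at 1.44, against 0.43 in the gene table. Over all genes in that table the share was 3.47% (569 of 16382).

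**Figure D4:**
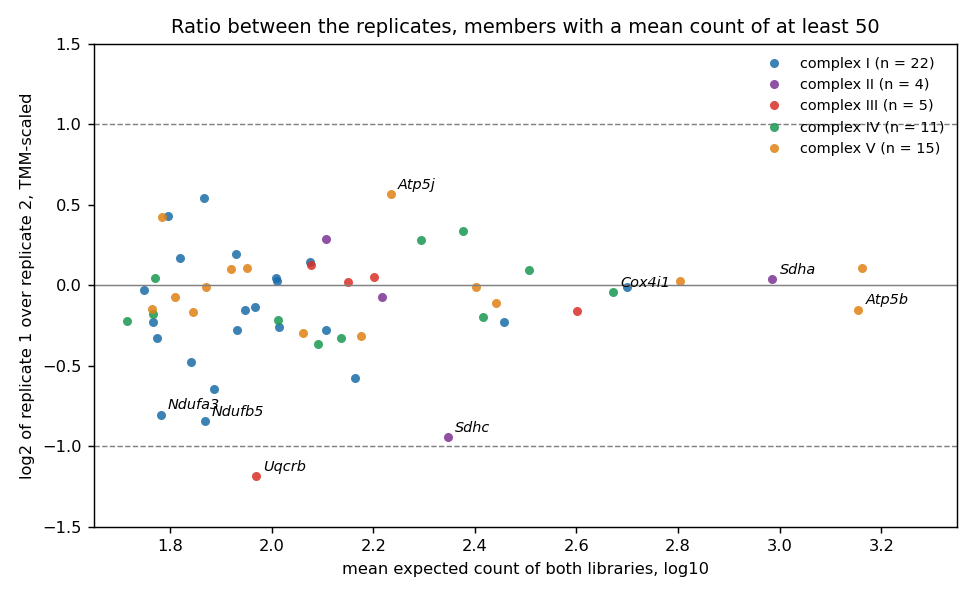
Log2 ratio of replicate 1 over replicate 2 after TMM scaling, against the mean expected count on a log10 axis, for the 57 members with a mean count of at least 50. Points below 0 were higher in replicate 2; Uqcrb, at -1.19, is the single member outside the dashed lines at 2-fold, and Atp5b, Sdha and Cox4i1, with high counts, lie near 0.

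Beside protein-coding transcripts, the annotation lists transcripts of the same gene with a retained intron, with a stop codon that marks them for nonsense-mediated decay, or with no open reading frame (processed transcripts). For the 80 detected members, the median share of gene TPM on transcripts not annotated as protein-coding was 19.4% in replicate 1 and 12.7% in replicate 2, against 26.6% and 25.4% over 8622 nuclear protein-coding genes. Taken over all members' TPM the share was 30.3% and 30.1%, against 33.1% and 32.6%. This order turned round for the summed share when it was taken of expected counts, which do not weight short transcripts up: it was 27.4% and 26.7% for members, against 21.1% and 21.2%. The medians of counts were 16.1% and 10.2% for members, against 11.4% and 11.0%, so the median turned in replicate 1 and not in replicate 2. Members therefore cannot be called lower or higher than other genes in this respect. Complex V had the highest summed share of the 5 complexes on both scales, 39.8% and 40.4% of TPM and 34.8% and 35.9% of counts. Retained-intron transcripts made up most of it, at 25.0% and 21.2% of complex V TPM. The sums include Atp5b, with 63.9% and 70.2% of its 67.3 and 64.0 TPM on transcripts not protein-coding. They also include Atp5l, with 85.8% and 87.2% of its 749 and 522 counts. As a median over subunits, the TPM share was 21.9% and 22.8% in complex V, against 21.9% and 17.2% in complex IV. The median share of counts in complex V was 32.7% and 33.8%, the highest of the 5 complexes.

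Single members ranged from none to all. In both libraries 13 of the 80 members (16.3%) had over 50% of their TPM on such transcripts, near the 19.0% of nuclear protein-coding genes. Another 22 (27.5%) had none, against 19.9%, and 8 detected members have a single annotated transcript. Across the 80 members the shares ranked alike in the libraries, with a Spearman correlation of 0.94 across genes that share the libraries and the annotation. The 22 members with none in both libraries enter this value, and members with a single annotated transcript can have no other share. Some members still moved far between the libraries, such as Ndufa5 at 29.97% and 80.2% and Ndufa7 at 85.1% and 50.8%. Ndufb4, an accessory subunit of complex I, had 94.9% and 100% on 22.7 and 22.5 counts, and a pseudogene named Ndufb4c had a similar TPM to it. Atp5j had 88.5% and 78.5%, or 84.3% and 73.5% of its counts. Its exons overlap those of Gabpa on the opposite strand, and the strand setting of the counting is not given in the sources used here. Atp5f1, of the peripheral stalk, had 76.0% and 83.8%, and Ndufab1, the mitochondrial acyl carrier protein that is also part of complex I, had 82.4% and 72.8%. Atp5b had 63.9% and 70.2% of its TPM on such transcripts but 36.6% and 40.3% of its counts, and Sdha had 41.9% and 37.9% of TPM but 9.52% and 6.79% of counts. In Atp5b the single protein-coding transcript held 24.3 and 19.1 TPM of the 67.3 and 64.0, on 1013 and 753 counts.

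**Figure D5:**
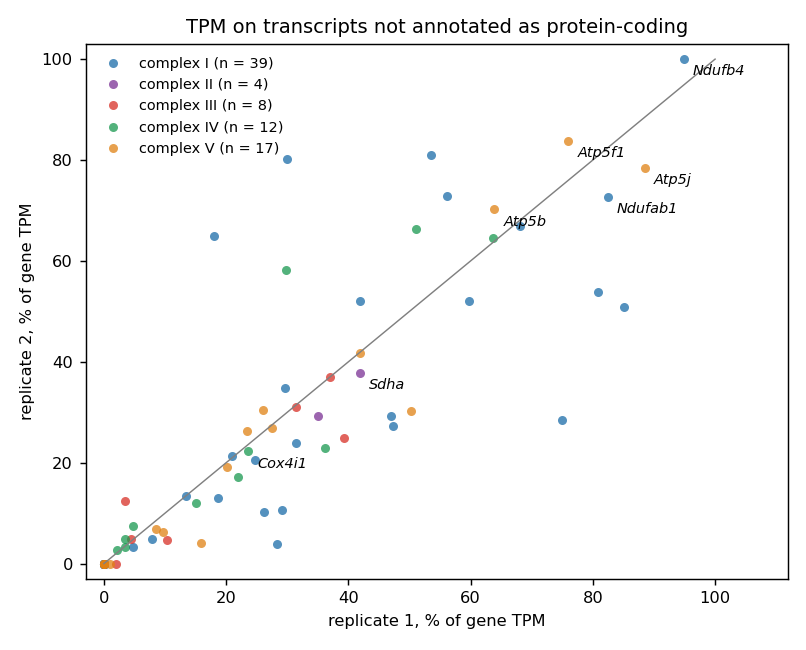
Percent of each member's TPM on transcripts not annotated as protein-coding, in replicate 1 (x axis) and replicate 2 (y axis), for the 80 detected members. Most points lie near the diagonal line of equal shares; Ndufb4, Atp5j, Atp5f1, Ndufab1 and Atp5b lie above 60% in both libraries.

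The gene table and the second transcript table were compared as a check of how far a level depends on the quantification. After scaling both tables to the same total over nuclear protein-coding genes, the median log2 ratio of the gene table over the second table was 0.12 ± 0.05 over the 80 members and 0.06 ± 0.03 over 8622 nuclear protein-coding genes (SD, n = 2). Beyond 2-fold in both libraries were 4 members, against 405 of the 8622 genes. Ndufs8, a core subunit of complex I with iron-sulphur clusters, had the largest difference, at a mean log2 ratio of -2.16. It had 52 and 35 counts in the gene table, against 319 and 307 in the second. The other 3 were Ndufb2, Cox7b and Ndufa7, at -1.36, -1.07 and -1.07. All 4 were lower in the gene table. Ndufa12 had a larger mean ratio, -1.48, but passed 2-fold in replicate 1 alone, at -1.98 and -0.98. The rank of these genes within their complexes is uncertain.

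The members are compact genes. Their median span was 7382 bases with 4 exons, against 17338 bases and 7 exons over all nuclear protein-coding genes, and their median effective length was 529 and 531 bases against 1851 and 1842. Across the 80 detected members, effective length and TPM had a Spearman correlation of -0.13 and -0.16. Exons of 29 members overlap a gene on the opposite strand, among them Cox4i1, Cox6c, Ndufs1 and Uqcrb. Without the members that overlap any gene, complex IV lay 1.02 above complex I in place of 1.37, and complex V, at 1.21, was then the highest. The other differences from complex I moved by less than their spread.

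Some names that match the rule had no protein-coding transcript and were not counted as members: 13 gene entries, of which 12 are pseudogenes. The other is Ndufb1-ps, annotated as a bidirectional promoter lncRNA, with 27.2 and 13.8 TPM on 388 and 184 counts. In replicate 1 this was above each of the 36 complex I subunits. Of the pseudogenes Ndufb4c had 2.29 and 2.33 TPM, and the others had at most 0.58 TPM.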

How the data were processed

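Ribosome-depleted nucleoplasmic RNA was measured in 2 libraries of 1 group. Each library has a gene table, a first transcript table of the same columns and a second with other columns, per the file headers, and the labels name the mm10 assembly. Quantifiers and strand setting: not given in the sources used here. Expected counts and the second table's estimated counts are the authors' unnormalised deposited values and need not be whole. TPM values were deposited by the authors, scaled to a fixed sum after division by effective length. The posterior SD of a count is a score deposited by the authors for the uncertainty of read assignment. Effective lengths were also deposited by the authors.

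Members were joined by gene identifier to GENCODE M21. A symbol with 2 entries (Atp5o) took the entry with the higher TPM. The 93 members, the gene lists and the tests were chosen with earlier results of these data known. Levels are medians of log2(TPM + 1) per library, given as mean ± SD, with detection at a TPM of at least 1. Replicate ratios used rounded expected counts, a mean count of at least 50, 0.5 added, and TMM from edgeR 4.0.16 under R 4.3.3, with size factors of DESeq2 1.42.0 as an alternative. Neither package was used for a test. The step was tested on simulated data. Depth was 21256531 expected counts in replicate 1 and 15643649 in replicate 2. Limits for zero counts use 3 counts and cover counting error only, since no molecular identifiers were counted. Tables were made with Python 3.11.15, numpy 2.4.6, pandas 2.3.3 and matplotlib 3.10.9.

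Named genes are the 4 highest and 2 lowest by mean TPM of complex I subunits, its assembly factors and complexes III, IV and V, all Sdh genes, all isoform families, members under 3 counts, the 5 largest replicate ratios, the 4 highest shares on transcripts not protein-coding, the 4 largest differences between tables, and the highest and lowest gene of each list. Others were named after their values were seen: Ndufs3, Ndufs7, Ndufs8, Ndufv1, Ndufv2, Uqcrfs1, the remaining F1 subunits, Atp5l, Cycs, Cyc1, the promoters printed, Ndufb1-ps and Ndufb4c. So were Ndufa5, Ndufa7, Ndufa8, Atpif1, Usmg5, Gabpa, Yy1, Nrf1 and the members with both an NRF1 and an ETS core. The fixed gene Coa1 matched no entry. One gene that this rule names is not reported here. Motif searches covered both strands of RefSeq promoters (GRCm38.p6), and matches of different motifs may overlap.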

Additional observations from a re-analysis of the deposited data

How the results depend on the processing

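No paired analysis was possible because there is a single group. The median level of the members, 2.53, was 2.00 in the second transcript table, 2.15 as CPM and 2.12 on protein-coding transcripts. The number of members that reached 1 in each library, 80 in the gene table, was 75, 77 and 76 in these settings. In the same 3 settings the difference from complex I was 0.36, 1.45 and 0.97 for complex II, 0.34, 0.67 and 0.99 for complex III, 1.19, 0.89 and 1.59 for complex IV, and 0.87, 0.64 and 0.85 for complex V. With a pseudocount of 0.1 it was 0.76, 1.55 and 1.36 for complexes III, IV and V. Without members that overlap another gene, an alternative chosen after seeing the data, it was 1.02 for complex IV, below the 1.21 of complex V. Assembly factors minus complex I was -2.27 with that pseudocount, -0.99 at a TPM of at least 1, -1.05 in the second table and -1.03 as CPM. None of these differences changed sign. The share of nuclear protein-coding expected counts was 0.0993%, where the share of TPM was 0.321%. Beyond 2-fold between replicates were 2 members with a minimum mean count of 10 and 6 without a minimum, as low counts enter, against 4.43% and 10.3% of all genes. The median share on transcripts not protein-coding was 28.1% in the second table, and its difference from all nuclear protein-coding genes, -9.92 points, was 1.93 as a share of counts, also chosen after seeing the data. Without scaling, the median ratio of the gene table over the second was 0.86. The causes were not tested, except where an alternative's construction shows them.

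Leaving out either replicate moved the level of the members between 2.32 and 2.74. It moved the difference from complex I between 0.53 and 0.87 for complex II, 0.64 and 0.67 for III, 1.27 and 1.47 for IV, 1.14 and 1.24 for V and -1.62 and -1.43 for assembly factors. The number of members at a TPM of at least 1 lay between 80 and 81, their share of TPM between 0.305% and 0.338%, the median share on transcripts not protein-coding between 12.7% and 19.4%, its difference from other genes between -12.7 and -7.15, and the table ratio between 0.09 and 0.16. Replicate ratios need both libraries. Of the named genes' mean TPM and replicate ratios, 44 moved by more than their spread in the second table and 17 did not.

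The 2 libraries share a donor label, and the spread between animals was not tested. At this depth 36 of the 93 members have a mean count under 50, so levels of small genes such as Ndufs6 rest on few counts.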
